A study of Mus musculus with 6 samples.

Results

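Imprinted growth genes are genes that are transcribed mainly from the copy inherited from 1 parent and that act on the size of the embryo. The 10 genes described here are H19, Igf2, Dlk1, Meg3, Peg3, Mest, Cdkn1c, Grb10, Plagl1 and Ndn. They were chosen by name, with earlier results of these data known, and all 10 were found among the 23478 genes of the deposited count table. The RNA came from tracheal cells of mouse embryos at day 13.5, sorted into groups, with 3 libraries of muscle and 3 of epithelium. Both populations came from control embryos with floxed Bmp4 alleles (Bmp4 f/f) and an eGFP reporter, gamma SMA eGFP, named for gamma smooth muscle actin. The muscle group was collected by GFP and so holds cells in which the reporter was active, and epithelial cells by an antibody to surface Epcam. The labels do not say whether replicates came from separate embryos or litters, so p-values measure only the spread between these libraries, which may be technical. The comparison asks which of the genes differed between the sorted populations.

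In genomic imprinting, DNA methylation laid down in the germ line marks 1 parental copy of a control region, and that mark decides which copy of the surrounding genes is read. Textbook accounts give Igf2, Dlk1, Peg3, Mest, Plagl1 and Ndn as paternally expressed and H19, Meg3 and Cdkn1c as maternally expressed, while Grb10 is read from the maternal copy in most tissues and from the paternal copy in neurons. Paternally expressed genes of this kind are known mostly as promoters of growth and maternally expressed ones as restraints on it, and many are high in the embryo and fall after birth. The counts do not tell the parental copies apart, so what follows concerns total RNA of each gene.

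H19, Igf2, Meg3 and Mest are also hosts of microRNAs (miRNAs), whose sequences are shown because the RNA of these hosts differed between the populations. They are taken from RefSeq (GRCm38.p6), 5′ to 3′, with the seed (bases 2 to 8) in capitals.

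miR-675-5p (within H19, chr7:142577112-142577133, minus strand): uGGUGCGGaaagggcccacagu
miR-675-3p (within H19, chr7:142577078-142577099, minus strand): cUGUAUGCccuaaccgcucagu
miR-483-5p (within Igf2, chr7:142654968-142654989, minus strand): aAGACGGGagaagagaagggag
miR-483-3p (within Igf2, chr7:142654932-142654952, minus strand): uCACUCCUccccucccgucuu
miR-770-5p (within Meg3, chr12:109563710-109563731, plus strand): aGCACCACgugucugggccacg
miR-770-3p (within Meg3, chr12:109563744-109563765, plus strand): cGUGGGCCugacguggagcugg
miR-1906 (within Meg3, chr12:109544588-109544609, plus strand): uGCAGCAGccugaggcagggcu
miR-335-5p (within Mest, chr6:30741314-30741336, plus strand): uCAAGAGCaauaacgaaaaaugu
miR-335-3p (within Mest, chr6:30741354-30741375, plus strand): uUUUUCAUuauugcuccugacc

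No seed is shared among these sequences. In the count table Mir675 and Mir770 were at 0 in all 6 libraries, and Mir335 and Mir483 held between 0 and 6 counts, near the level of 3 counts that was taken as the floor. Only the host transcripts are compared here.

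Of the 10 genes, 8 were higher in muscle and none was higher in epithelium (edgeR, quasi-likelihood test, adjusted p under 0.05 after Benjamini-Hochberg adjustment over all 19375 genes tested). All 10 passed the filter on low counts, with at least 831 counts in every library. Over all genes tested, 6.58% were called higher in muscle and 4.11% higher in epithelium. These shares include genes of low level. With a filter of at least 10 CPM in 3 libraries, 1539 of 10784 genes were called higher in muscle, with 8 of the 10 among them. The 8 genes were H19, Igf2, Dlk1, Meg3, Peg3, Mest, Plagl1 and Ndn, and in each of them every muscle library lay above every epithelial library, which held in that direction for 16.4% of all genes (26.9% in either direction). Cdkn1c and Grb10 did not pass, and their groups overlapped. At an unadjusted p under 0.05 none of the 10 was higher in epithelium either, nor was any with DESeq2 or limma-voom. The median log2 fold change of muscle over epithelium was 1.55 over the 10 genes and -0.10 over all genes tested.

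Summed, the 10 genes made up 1.14% ± 0.13 (SD, n = 3) of all counts in muscle and 0.61% ± 0.11 in epithelium. The library with the smallest share among muscle held 1.01%, and that with the largest share among epithelium held 0.71%. In a sorted population, more RNA of a gene per cell and more cells that express it cannot be told apart.

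**Figure D1:**
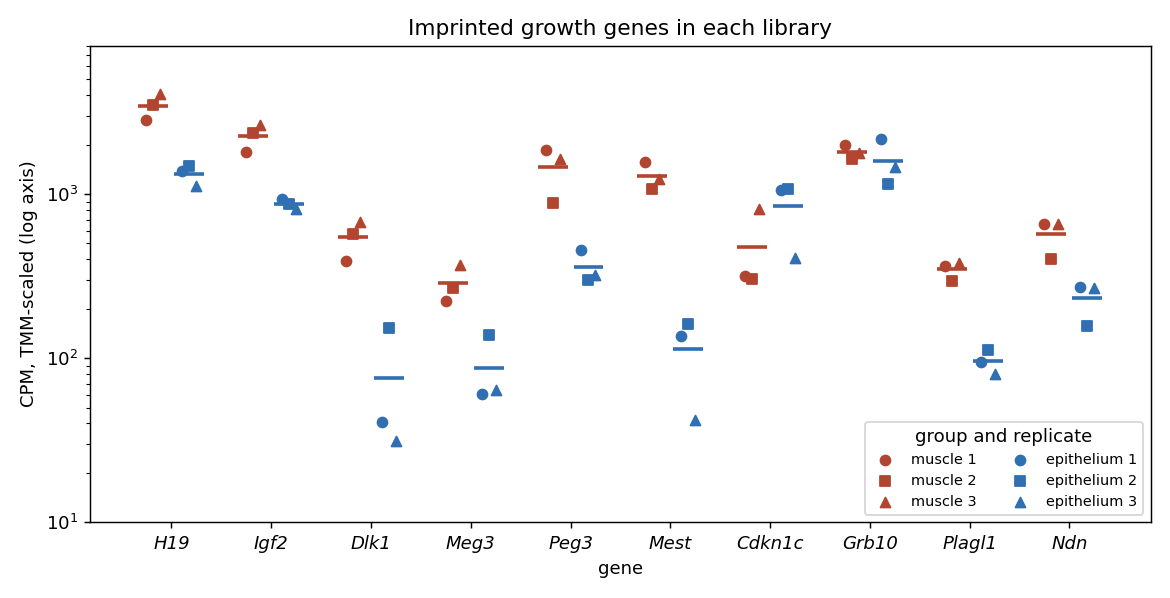
CPM (counts scaled to equal library size by TMM, log axis) of the 10 genes in each of the 6 libraries, with circles, squares and triangles for replicates 1, 2 and 3 and bars for the group means. Muscle (red) lies above epithelium (blue) without overlap in 8 genes, while the groups overlap in Cdkn1c and Grb10.

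Levels below are in CPM, the deposited counts brought to equal library size with TMM scaling. This adjusts for total count and, on the assumption that most genes do not differ, for composition. Total counts ran from 11847432 (epithelium replicate 2) to 54848820 (epithelium replicate 1). Muscle replicate 2 and epithelium replicates 2 and 3 carried more counts of 1449 olfactory and vomeronasal receptor genes, taken here as a measure of background, than the other 3 libraries. Per receptor gene the mean, scaled by total counts without TMM, was at most 1.24 CPM (epithelium replicate 2). The lowest value of any of the 10 genes was 31.2 CPM, for Dlk1 in epithelium replicate 3, where the receptor mean was 0.433 CPM. These values take no account of gene length, and the exons of the 10 genes span from 2.04 kb (Cdkn1c) to 18.1 kb (Meg3). The part of background in the level of a long gene was not tested. The sorted genes separated the libraries, with Actg2 (gamma smooth muscle actin) at 403 CPM or more in each muscle library and Epcam at 541 CPM or more in each epithelial library. In the file headers both libraries numbered 2 carry an identifier that differs from that of the other 4, and the values within those 4 are given as a check.

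The H19/Igf2 domain lies near the distal end of chromosome 7. H19 (chr7:142575529-142578143, minus strand, GRCm38) is a long noncoding RNA gene, and Igf2 (chr7:142650766-142666816, minus strand) encodes insulin-like growth factor 2, the main growth factor of its family before birth. A control region between them that binds CTCF directs shared enhancers to H19 on the maternal and to Igf2 on the paternal copy. H19 had 2832, 3475 and 4076 CPM in muscle replicates 1 to 3 and 1387, 1474 and 1115 CPM in epithelium replicates 1 to 3. The lowest muscle library thus held more H19 than the highest epithelial one, and H19 was among the 53 genes with the most counts in each library, the 4th in muscle replicate 2. Its log2 fold change was 1.38 ± 0.26 (SE, edgeR, adjusted p = 0.0094), a 2.61-fold higher level in muscle. Igf2 had 1817, 2346 and 2623 CPM in muscle and 932, 873 and 808 CPM in epithelium. Igf2 was 2.60-fold higher in muscle, with a log2 fold change of 1.38 ± 0.25 (edgeR, adjusted p = 0.0079), and the epithelial libraries were close to each other.

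The calls of both genes depended on epithelium replicate 3, the epithelial library with the least of each. Calls over all genes also fell without that library, from 2071 to 1169. Without it, the adjusted p in edgeR was 0.086 for H19 and 0.077 for Igf2, at log2 fold changes of 1.16 and 1.21. Within the 4 libraries that share a header identifier they passed, at 1.39 (adjusted p = 0.011) for H19 and 1.28 (adjusted p = 0.013) for Igf2 in edgeR.

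Although both RNAs differed between the populations, their ratio within a library overlapped between the groups. H19 counts were 1.56, 1.48 and 1.55 times those of Igf2 in muscle replicates 1 to 3 and 1.49, 1.69 and 1.38 times in epithelium replicates 1 to 3. The mean log2 ratio was 0.61 ± 0.04 in muscle (SD, n = 3) against 0.60 ± 0.15 in epithelium. The difference of 0.02 lay within the spread of the libraries (exact permutation test, two-sided, p = 1, where 3 libraries against 3 allow no p under 0.10). Without epithelium replicate 3 the difference in the log2 ratio of H19 to Igf2 counts was -0.0501. A ratio within a library needs no scaling between libraries. Among the 10 genes, H19 and Igf2 also had the closest profiles over the 6 libraries, with a root mean square difference of 0.09 on the log2 scale after each gene was centred on its mean.

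**Figure D2:**
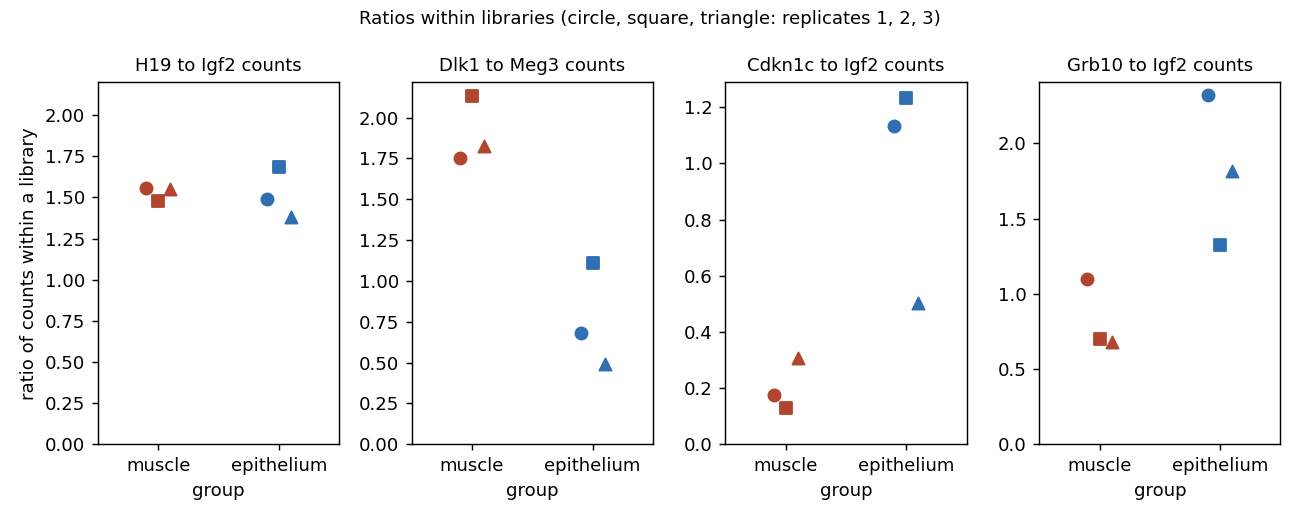
Ratio of the counts of 2 genes within each library (vertical axes, linear and from 0) for muscle (red) and epithelium (blue). H19 to Igf2 spans 1.38 to 1.69 over all libraries with overlapping groups, whereas Dlk1 to Meg3 does not overlap between the groups. Cdkn1c to Igf2 and Grb10 to Igf2, which carry the difference of Igf2 itself, do not overlap either.

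Igf2os, an antisense transcript of Igf2, had between 92 and 294 counts in a library. It stood at 0.00192 to 0.00218 times the counts of Igf2 in muscle and at 0.00567 to 0.00941 times in epithelium. Counting by strand is not stated, so the reads of Igf2os and Igf2 cannot be told apart where they overlap.

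Dlk1 and Meg3 belong to an imprinted domain of chromosome 12. Dlk1 (chr12:109452823-109463336, plus strand, GRCm38) encodes a membrane protein related to the Notch ligands that holds back differentiation, and Meg3 (chr12:109541001-109571726, plus strand) is a long noncoding RNA. Dlk1 had 391, 572 and 679 CPM in muscle replicates 1 to 3 and 41.1, 154 and 31.2 CPM in epithelium replicates 1 to 3. Epithelium replicate 2 thus stood apart, with several times the Dlk1 of the other epithelial libraries. The log2 fold change was 2.86 ± 0.59 (SE, edgeR, adjusted p = 0.015) and rose to 3.86 (adjusted p = 0.00043) without that library. Dlk1 was not called with library size as the only scaling (edgeR, adjusted p = 0.059) or with the receptor-gene counts as a covariate (0.0504). Meg3 had 223, 268 and 372 CPM in muscle and 60.5, 138 and 63.7 CPM in epithelium, where replicate 2 was again the highest. Its log2 fold change was 1.72 ± 0.38 (edgeR, adjusted p = 0.020).

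Epithelium replicate 2 also held the most RNA of mesenchymal marker genes. Over the 10 genes of that list (Col1a1, Col1a2, Col3a1, Pdgfra, Pdgfrb, Dcn, Lum, Twist1, Twist2 and Prrx1) the summed level was 2245 CPM there, against 389 and 286 CPM in epithelium replicates 1 and 3 and 8833 to 11555 CPM in muscle. The median over these markers was 24.8% of the muscle mean in epithelium replicate 2 and 4.30% and 5.10% in replicates 1 and 3. In the same order of libraries (2, 1, 3), Dlk1 was at 28.1%, 7.51% and 5.70% of its muscle mean and Meg3 at 48.0%, 21.0% and 22.1%. H19 was at 42.6%, 40.1% and 32.2%, and Igf2 at 38.6%, 41.2% and 35.7%, which is above the median of the mesenchymal markers in every epithelial library. Summed smooth muscle markers were at 122 to 154 CPM in epithelium, near 1% of their muscle mean. The part of other mesenchymal cells in the epithelial levels was not tested.

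Unlike the ratio of H19 to Igf2, that of Dlk1 to Meg3 separated the groups. Dlk1 counts were 1.75, 2.13 and 1.82 times those of Meg3 in muscle and 0.68, 1.11 and 0.49 times in epithelium. The mean log2 ratio was higher by 1.40 in muscle (exact permutation test, two-sided, p = 0.1, the smallest p that 3 libraries against 3 allow), with an SD of 0.15 in muscle and 0.59 in epithelium (n = 3 each). The neighbouring noncoding RNAs Rian and Mirg, processed from the same region, did not pass the threshold, with log2 fold changes of 1.63 ± 0.49 (edgeR, adjusted p = 0.071) and 1.81 ± 0.70 (adjusted p = 0.16). Rian had 17.8 ± 5.77 CPM in muscle (SD, n = 3) against 5.76 ± 3.49 in epithelium, without overlap. The call of Meg3 was lost without epithelium replicate 3 (edgeR, adjusted p = 0.0997) and without muscle replicate 3 (0.057). Within the 4 libraries that share a header identifier, Dlk1 had a log2 fold change of 3.81 (edgeR, adjusted p = 0.0015) and Meg3 one of 2.19 (adjusted p = 0.0052).

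Mest had the largest change of the 10 genes in the fit to all 6 libraries. Mest (chr6:30723547-30748465, plus strand, GRCm38) encodes an enzyme of the alpha/beta hydrolase fold that is named for its expression in mesoderm. It had 1563, 1081 and 1236 CPM in muscle replicates 1 to 3 and 137, 162 and 42.1 CPM in epithelium replicates 1 to 3. The muscle libraries were within 1.45-fold of each other while the epithelial ones spanned 3.84-fold, with replicate 3 the lowest. Mest was 11.4-fold higher in muscle, a log2 fold change of 3.51 ± 0.49 (SE, edgeR, adjusted p = 0.0023), and it passed the threshold in all 18 alternative fits. It was at 12.5%, 10.6% and 3.25% of its muscle mean in epithelium replicates 2, 1 and 3. Copg2, which overlaps the end of Mest on the other strand, had 48.6 ± 12.4 CPM in muscle (SD, n = 3) against 68.7 ± 5.53 in epithelium and did not pass (edgeR, adjusted p = 0.31).

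Peg3 and Plagl1, which encode zinc finger proteins, were also higher in muscle in every alternative fit. Peg3 (chr7:6703892-6730431, minus strand, GRCm38) had 1864, 888 and 1629 CPM in muscle replicates 1 to 3 and 457, 298 and 321 CPM in epithelium replicates 1 to 3. Muscle replicate 2 was the lowest of its group and still well above the highest epithelial library. The log2 fold change was 2.02 ± 0.34 (SE, edgeR, adjusted p = 0.0057). Plagl1 (chr10:13060504-13131694, plus strand) encodes a transcription factor that restrains cell division and is known to bind other imprinted genes. Plagl1 had 365, 295 and 382 CPM in muscle and 95.4, 112 and 80.3 CPM in epithelium, so the libraries of each group lay close together. Its log2 fold change was 1.86 ± 0.25 (edgeR, adjusted p = 0.0019), the smallest adjusted p among the 10 genes.

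Ndn (chr7:62346569-62350262, plus strand, GRCm38), a gene without introns that encodes necdin, a MAGE family protein known from neurons and muscle precursors, had a smaller difference. It had 660, 404 and 659 CPM in muscle replicates 1 to 3 and 270, 158 and 266 CPM in epithelium replicates 1 to 3. Both libraries numbered 2 were the lowest of their groups. Its log2 fold change was 1.31 ± 0.31 (SE, edgeR, adjusted p = 0.028), and 1.22 within the 4 libraries that share a header identifier (adjusted p = 0.0028). It no longer passed without muscle replicate 1 (edgeR, adjusted p = 0.11), muscle replicate 3 (0.10) or epithelium replicate 3 (0.094). Magel2, the neighbouring gene of the same family, had 11.7 ± 3.76 CPM in muscle (SD, n = 3) against 8.69 ± 3.22 in epithelium, a difference within the spread.

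Cdkn1c and Grb10, which both restrain growth, did not pass the test. Cdkn1c (chr7:143458339-143461050, minus strand, GRCm38) encodes the inhibitor of cyclin-dependent kinases p57 and lies in the domain next to Igf2. It had 317, 304 and 806 CPM in muscle replicates 1 to 3 and 1056, 1078 and 407 CPM in epithelium replicates 1 to 3. The replicate numbered 3 went against the others in both groups, highest in muscle and lowest in epithelium. The log2 fold change was -0.83 ± 0.48 (SE, edgeR, adjusted p = 0.41) with a 95% interval from -1.93 to 0.26, and Cdkn1c was at -1.44 without muscle replicate 3 and between that and -0.58 over the fits with 1 library left out. Cdkn1c passed in none of the 18 alternative fits, whose edgeR, DESeq2 or limma-voom adjusted p lay between 0.11 and 0.86, and its fold change was negative in all of them.

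Grb10 (chr11:11930508-12038683, minus strand, GRCm38) encodes an adaptor that binds the insulin and IGF1 receptors and dampens their signal. It had 1993, 1641 and 1789 CPM in muscle replicates 1 to 3 and 2166, 1155 and 1465 CPM in epithelium replicates 1 to 3. The highest and the lowest value were both in epithelium. The log2 fold change was 0.18 ± 0.29 (SE, edgeR, adjusted p = 0.89) with a 95% interval from -0.47 to 0.83, and its sign changed in 4 of the 18 alternative fits. The interval reaches 1.77-fold toward muscle and 0.723 times the epithelial level in the other direction.

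Other genes were set against Igf2 in the same library as a description, chosen after the values were seen and not tested, since each such ratio carries the difference of Igf2 itself. Cdkn1c counts were 0.13 to 0.31 times those of Igf2 in muscle and 0.50 to 1.23 times in epithelium. The ratio of Grb10 to Igf2 was 0.68 to 1.10 in muscle and 1.32 to 2.32 in epithelium. The log2 differences were -2.22 and -1.14, beside 1.38 for Igf2 alone. Mest to Igf2 went the other way, from 0.46 to 0.86 in muscle and from 0.05 to 0.19 in epithelium. Plagl1 to Igf2 overlapped, with 0.13 to 0.20 in muscle and 0.10 to 0.13 in epithelium.

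**Figure D3:**
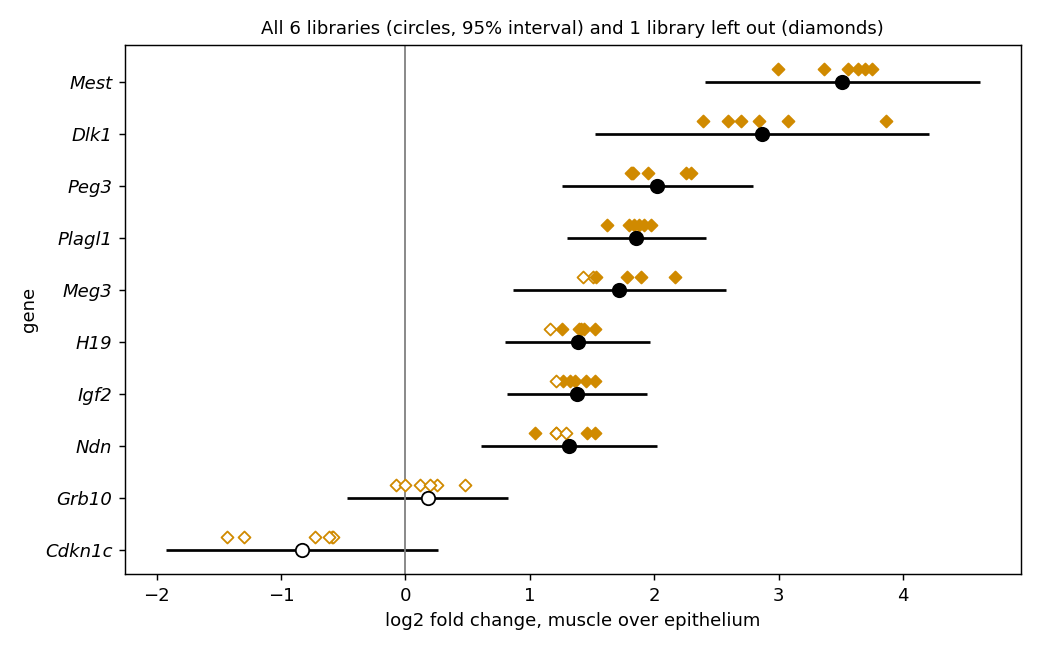
Log2 fold change of muscle over epithelium for each of the 10 genes (circles with 95% intervals, filled where the adjusted p is under 0.05) and the same value with 1 library left out (diamonds, filled likewise). Mest, Dlk1, Peg3 and Plagl1 keep filled diamonds throughout, and Grb10 and Cdkn1c have none.

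Levels can be compared between genes only per length. Divided by the length of the union of a gene's exons in GENCODE M21, H19 was the highest of the 10 in both groups, with 1407 ± 253 CPM per kb (SD, n = 3) in muscle and 539 ± 76.1 in epithelium. In muscle Igf2 (395 ± 71.6 CPM per kb) and Mest (328 ± 62.4) followed, and their ranges over libraries overlapped. In epithelium the second was Cdkn1c with 415 ± 187 CPM per kb, ahead of Grb10 (176 ± 57.0) and Igf2 (152 ± 10.9). Dlk1 (13.3 ± 12.0), Plagl1 (12.3 ± 2.03) and Meg3 (4.83 ± 2.43 CPM per kb) were the lowest in epithelium and overlapped in part. By the longest transcript instead, Mest (485 CPM per kb) and Igf2 (479) exchanged places in muscle. The gene models behind the deposited counts are not given in the sources used here, so these levels per length are approximate, and by the longest transcript Grb10 moved from 199 to 357 CPM per kb in muscle.

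For each of the 10 genes, the most similar profile over the 6 libraries was sought among 4113 other genes (average log2 CPM 6 or more), by the root mean square difference of centred log2 CPM. The nearest were Smarca2 for H19 (0.07), Cd63 for Igf2 (0.09), Col5a2 for Dlk1 (0.15), Prnp for Meg3 (0.20), Pald1 for Peg3 (0.09), Sulf1 for Mest (0.23), Wwtr1 for Plagl1 (0.08) and Tshz1 for Ndn (0.10). All 8 of these neighbours were higher in muscle in edgeR. Vegfa was nearest to Cdkn1c (0.18) and Vps16 to Grb10 (0.08), and neither passed the threshold. These outcomes follow from the choice, since each neighbour was picked for its likeness over the same 6 libraries, and they are no separate result.

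Other imprinted genes were compared as a whole to see whether the difference extended to them. Of 59 listed, 56 were in the table and 55 were tested. The test called 6 higher in muscle and 1 in epithelium, 12.7% against 10.7% of all genes tested. Their median log2 fold change was 0.07, against 1.55 for the 10 growth genes. Many of the 55 were at a few CPM, unlike the 10, so the comparison does not hold level equal. In 16 of the 55 every muscle library lay above every epithelial one, and in 6 the reverse held (16.4% and 10.5% of all genes tested). At an unadjusted p under 0.05 in edgeR, 13 were higher in muscle and 3 in epithelium. Of the 22 tested that textbook accounts give as paternally expressed, 3 were higher in muscle (Sgce, Airn and Impact) and none in epithelium, none at an unadjusted p under 0.05 and none with DESeq2 or limma-voom. Of the 33 given as maternally expressed, Cd81, Zim1 and Igf2r were higher in muscle and Pon2 in epithelium. The count in epithelium rose to 4 with library size as the only scaling or with DESeq2. The count in muscle was 3 without epithelium replicate 3, and 11 with limma-voom.

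Igf2r encodes the receptor that takes up insulin-like growth factor 2 and sends it for degradation. It had 236 ± 52.5 CPM in muscle (SD, n = 3) against 69.7 ± 17.7 in epithelium, a log2 fold change of 1.76 ± 0.29 (edgeR, adjusted p = 0.0052). Airn, the noncoding RNA read across Igf2r from the other strand, had 32.7 ± 5.04 and 10.7 ± 3.80 CPM (1.61 ± 0.31, edgeR, adjusted p = 0.010), and without strand its reads cannot be told from those of Igf2r. Zim1, a zinc finger gene next to Peg3, had 20.4 ± 4.41 CPM in muscle and 3.68 ± 3.29 in epithelium (2.49 ± 0.61, edgeR, adjusted p = 0.031). With 1 library left out, Zim1 did not pass in 3 of 6 fits (edgeR, adjusted p as high as 0.12), and its log2 fold change was 3.46 without epithelium replicate 2. Sgce, which encodes epsilon-sarcoglycan of the muscle membrane, was at 130 ± 14.4 CPM in muscle against 30.6 ± 6.37 in epithelium (2.09 ± 0.25, edgeR, adjusted p = 0.0012). Cd81 (1.55 ± 0.23, adjusted p = 0.0035) and Impact (1.15 ± 0.25, adjusted p = 0.019) were higher in muscle in edgeR. Pon2, a paraoxonase gene, had 12.03 ± 2.84 CPM in muscle and 40.3 ± 10.4 in epithelium (-1.74 ± 0.30, edgeR, adjusted p = 0.0066). Impact did not pass when any 1 of 4 libraries was left out, nor Airn without epithelium replicate 3.

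Among 29 tested genes from the same chromosomal clusters as the 10, edgeR called Cd81 and Zim1 (6.90%, beside 10.7% of all genes). DESeq2 called 2 of the 29 higher in muscle and 2 higher in epithelium, and limma-voom 4 and 1. Of all genes tested, DESeq2 called 18.2% and limma-voom 12.8%. Ins2, which lies beside Igf2, had at most 18 counts in a library. Kcnq1ot1, the noncoding RNA of the domain of Cdkn1c, had 148 ± 34.2 CPM in muscle (SD, n = 3) against 113 ± 25.4 in epithelium and did not pass (edgeR, adjusted p = 0.56).

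**Figure D4:**
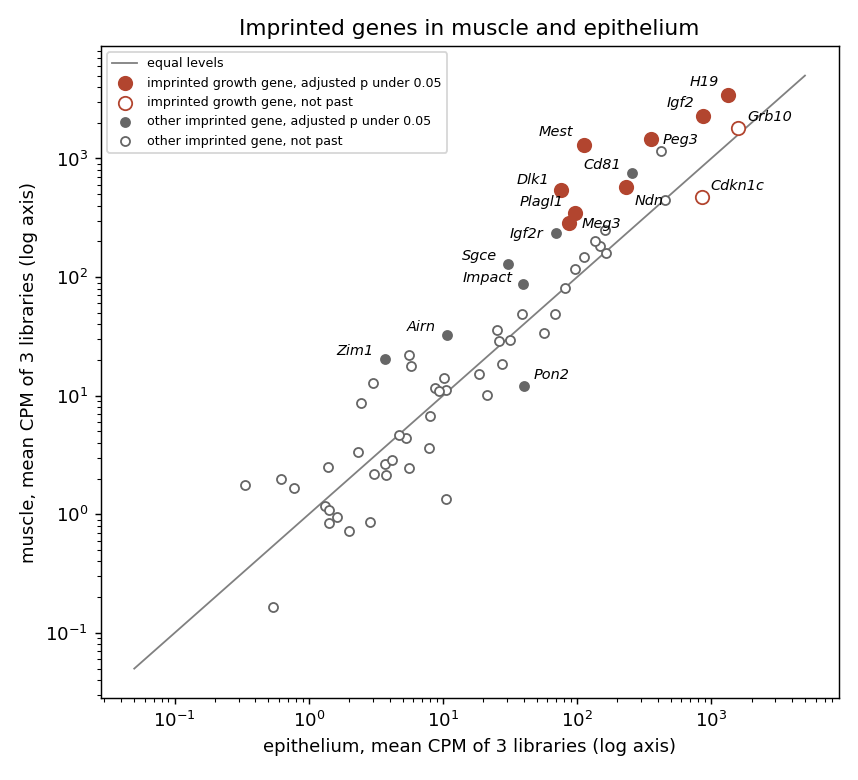
Mean CPM of 3 muscle libraries (vertical, log axis) against the mean of 3 epithelial libraries (horizontal, log axis) for the 10 growth genes (red) and 55 other imprinted genes (grey), filled where the adjusted p is under 0.05, with the line of equal levels. Of the growth genes, 8 lie above the line and past the threshold, while the other imprinted genes scatter on both sides of it.

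The partners of these genes were examined from lists of named genes. Of 16 genes of the IGF2 pathway, Igf1, Igf2r and Igfbp4 were higher in muscle and Igfbp2 in epithelium (25% called, beside 10.7% of all genes tested). Igf1, the sister growth factor of Igf2, averaged 754 ± 263 CPM in muscle (SD, n = 3) against 58.8 ± 44.3 in epithelium (edgeR, adjusted p = 0.0035). Igfbp2, which encodes a secreted protein that binds both factors, averaged 15.8 ± 4.53 against 549 ± 295 CPM (edgeR, adjusted p = 0.00045). The receptors Igf1r (0.61 ± 0.27, edgeR, adjusted p = 0.23) and Insr (0.53 ± 0.28, adjusted p = 0.36), and the RNA-binding proteins of Igf2 transcripts Igf2bp1 (-0.47 ± 0.37, adjusted p = 0.63), Igf2bp2 (0.48 ± 0.31, adjusted p = 0.49) and Igf2bp3 (-0.36 ± 0.27, adjusted p = 0.60) did not pass. Of 20 paralogs and partners, Notch1 and Maged2 were higher in muscle, and Grb7 and Ccnd2 in epithelium (20% called, beside 10.7%). Maged2, of the same family as Ndn, averaged 1946 ± 94.3 CPM in muscle and 511 ± 38.0 in epithelium (edgeR, adjusted p = 0.0012). Grb7, a paralog of Grb10, had 1.02 ± 1.49 CPM in muscle (SD, n = 3) against 144 ± 41.3 in epithelium, a log2 fold change of -7.27 ± 1.04 (edgeR, adjusted p = 0.0028), or -9.73 without muscle replicate 2. The other paralog Grb14 had 14.0 ± 9.09 and 46.0 ± 5.59 CPM (edgeR, adjusted p = 0.081) and was called in 3 of the 18 alternative fits. The paralogs of Cdkn1c were far below it in counts, Cdkn1b with 7.77 ± 2.92 and 9.57 ± 2.54 CPM and Cdkn1a with 21.7 ± 16.1 and 33.0 ± 14.8 CPM, and neither passed. The relatives of Plagl1 and Dlk1 did not pass either, with adjusted p in edgeR of 0.25 for Plag1, 0.10 for Plagl2 and 0.37 for Dlk2. Plagl2 was called higher in epithelium in 9 of the 18 alternative fits (adjusted p down to 0.0024, DESeq2), and Dlk2 with DESeq2 (adjusted p = 0.047).

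None of 18 genes of imprint maintenance passed the threshold in edgeR, beside 10.7% of all genes tested, and 4 had an unadjusted p under 0.05. DESeq2 called 4 of them higher in epithelium, beside 1582 of all 19375 genes tested. With limma-voom 1 was higher in muscle, beside 1590 of all 19375. Ctcf, which binds the H19/Igf2 control region, had 53.9 ± 7.50 CPM in muscle (SD, n = 3) against 68.3 ± 11.8 in epithelium. Dnmt1, the maintenance DNA methyltransferase, had 180 ± 40.7 and 244 ± 89.0 CPM, and its partner Uhrf1 132 ± 28.8 and 214 ± 72.6 CPM. Uhrf1 was called higher in epithelium in 7 of the 18 alternative fits, with DESeq2 among them. Trim28 had 130 ± 47.1 and 148 ± 40.8 CPM. Zfp57, which recognises methylated control regions, was low, with 16.1 ± 1.09 CPM in muscle and 7.49 ± 2.53 in epithelium (1.10 ± 0.36, edgeR, adjusted p = 0.093). The groups of Zfp57 did not overlap.

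Promoters are shown for Mest, Plagl1 and Meg3, which were higher in muscle, and for Grb10, which did not pass, with the letters TGCCGC that ZFP57 recognises, on either strand, in capitals. They span 250 bases before to 50 after a transcription start in RefSeq (GRCm38.p6), 5′ to 3′ on the strand of the gene.

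Mest promoter (chr6:30737800-30738099, plus strand): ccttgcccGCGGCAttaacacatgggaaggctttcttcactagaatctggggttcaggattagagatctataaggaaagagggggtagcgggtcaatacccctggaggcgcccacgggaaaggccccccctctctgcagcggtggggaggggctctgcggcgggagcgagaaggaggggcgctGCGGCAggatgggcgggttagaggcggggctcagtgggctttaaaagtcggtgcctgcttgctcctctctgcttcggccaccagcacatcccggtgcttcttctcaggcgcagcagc
Plagl1 promoter (chr10:13090582-13090881, plus strand): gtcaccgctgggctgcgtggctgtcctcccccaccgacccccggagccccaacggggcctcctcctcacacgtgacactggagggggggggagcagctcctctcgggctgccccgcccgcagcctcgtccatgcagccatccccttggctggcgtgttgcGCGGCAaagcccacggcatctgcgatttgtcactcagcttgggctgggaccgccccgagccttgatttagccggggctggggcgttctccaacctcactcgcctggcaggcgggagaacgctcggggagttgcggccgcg
Meg3 promoter (chr12:109540746-109541045, plus strand): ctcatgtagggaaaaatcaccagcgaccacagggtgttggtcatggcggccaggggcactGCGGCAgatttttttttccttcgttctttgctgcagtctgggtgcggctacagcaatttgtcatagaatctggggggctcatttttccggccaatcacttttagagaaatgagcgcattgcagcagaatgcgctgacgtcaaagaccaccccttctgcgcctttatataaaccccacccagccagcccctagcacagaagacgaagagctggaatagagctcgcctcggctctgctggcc
Grb10 promoter (chr11:12037371-12037670, minus strand): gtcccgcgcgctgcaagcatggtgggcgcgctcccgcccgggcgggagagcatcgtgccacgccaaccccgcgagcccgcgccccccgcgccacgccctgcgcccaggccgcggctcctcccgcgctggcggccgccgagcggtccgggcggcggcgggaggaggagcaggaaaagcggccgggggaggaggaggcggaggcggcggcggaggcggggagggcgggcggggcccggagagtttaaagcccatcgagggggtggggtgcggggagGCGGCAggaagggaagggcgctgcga

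The RefSeq table held promoters of 8 of the 10 genes, and H19 and Cdkn1c had no entry. TGCCGC occurred in at least 1 promoter of Igf2, Meg3, Mest, Grb10 and Plagl1. Over the table it was in 11.6% of all 32851 promoters. That share is per promoter, while a gene here had up to 4 promoters (Igf2), so the count of genes cannot be set against it. The Mest promoter printed held it 2 times. It was not found in the windows of Dlk1, Peg3 and Ndn. The letters were thus present both in genes that were higher in muscle and in Grb10, which did not pass. The Grb10 promoter shown had 45 CpG dinucleotides, more than 98.1% of all promoters, and that of Plagl1 had 26, while the median was 7. Promoter methylation was not measured here.

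Markers of several other cell types were low in both groups. For the counts of calls below, edgeR called 6.58% of all genes tested higher in muscle and 4.11% higher in epithelium. In either direction DESeq2 called 18.2% and limma-voom 12.8%. Immune markers summed to 3.19 to 55.4 CPM in muscle and 4.42 to 44.5 CPM in epithelium, and neural and glial markers to 36.6 to 85.8 and 32.5 to 85.7 CPM. None of the 9 immune genes tested passed in edgeR, at an unadjusted p under 0.05, with DESeq2 or with limma-voom. Of the neural and glial genes none passed in edgeR or DESeq2, while 1 was higher in muscle at an unadjusted p under 0.05 and with limma-voom. None of the 6 erythroid genes tested passed in edgeR, at an unadjusted p under 0.05 or with the other tools. The globin genes Hba-a1, Hba-a2, Hbb-bs and Hbb-bt were at 0 in every library, and whether they were counted at all is not known. The globin gene Hbb-y had 7.11 to 34.7 CPM in muscle and 5.59 to 15.6 CPM in epithelium. Endothelial markers summed to 83.4 to 119 CPM in muscle and 15.2 to 75.1 CPM in epithelium, with 2 of 10 higher in muscle, and cartilage markers to 979 to 1671 and 347 to 631 CPM, with 4 of 10 higher in muscle. The 7 mesothelial markers summed to 4.03 to 21.9 CPM in muscle and 177 to 413 CPM in epithelium. Of these only Krt19 was called, with 2.02 ± 0.47 CPM in muscle (SD, n = 3) and 255 ± 122 in epithelium. The other 6 did not pass, and the highest of them in epithelium, Gpm6a, averaged 7.13 CPM there. Cell division genes summed to 1154 to 1403 CPM in muscle and 961 to 1868 CPM in epithelium. None of those 10 passed in edgeR or limma-voom, and 1 was higher in epithelium at an unadjusted p under 0.05 and with DESeq2. Mesenchymal markers were higher in muscle in 7 of 10 genes and smooth muscle markers in 10 of 10, and all 10 epithelial markers were higher in epithelium. The muscle library with the least smooth muscle marker RNA, replicate 2 (4137 CPM, against 16896 and 17829 CPM), had H19, Igf2, Dlk1 and Meg3 between the values of the other muscle libraries and the lowest Peg3, Mest, Cdkn1c, Grb10, Plagl1 and Ndn of its group. The part of cartilage, endothelial and other mesenchymal cells in the muscle levels was not tested.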

How the data were processed

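RNA counts of 6 libraries were analysed. Per the labels' protocols, tracheal cells were dissociated with TrypLE, sorted, and their RNA was made into libraries with an ultra-low-input kit (SMART-Seq) and Nextera XT. The authors deposited whole-number counts per gene symbol, and no molecular identifiers are described, so PCR copies may be included. Per the submitters' processing notes, Trim Galore, Bowtie2, Cufflinks, DESeq and the build mm10 were named, with no role stated. The annotation, the counting settings and any filter are not given in the sources used here. GENCODE M21 and RefSeq tables on GRCm38, the assembly behind mm10, gave positions.

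Groups came from the sample titles. The deposited counts were filtered (filterByExpr by group), scaled by TMM and tested, two-sided, by quasi-likelihood in edgeR 4.0.16 (robust, no covariate) in R 4.3.3, with Benjamini-Hochberg adjustment over 19375 genes. SE was derived from the test statistic, and 95% intervals from it. Alternatives used DESeq2 1.42.0, limma 3.58.1 (voom), other scalings and filters, a covariate, a replicate block and left-out libraries. Of all counts from 1 to 19 in a library, 73.8% to 79.6% were even, so a fragment may have added more than 1 count. At the 10 genes' counts, replicate spread and not depth limits precision.

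The genes, lists and rules were chosen with earlier results of these data known. Named were the 10 genes, the other imprinted or neighbouring genes past the threshold with average log2 CPM 2 or more (up to 8 in each direction), a fixed set of partners, the sorted genes and the nearest profile of each gene. Rian, Mirg, Copg2, Magel2, Kcnq1ot1, Igf2os, Ins2 and the genes named beside list counts were added after their values were seen. No library or value column was left out.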

Additional observations from a re-analysis of the deposited data

How the results depend on the processing

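The 8 genes higher in muscle kept that direction in all 18 alternative fits, and Mest, Peg3 and Plagl1 passed the threshold in each of them. The count of the 10 genes higher in muscle ranged from 4 to 8 over the fits without a library and was 4 without epithelium replicate 3 and 5 at an adjusted p under 0.01. None of the 10 was higher in epithelium in any fit. With library size only, Dlk1 (edgeR, adjusted p = 0.059) and Meg3 (0.083) lost their call, the median of the 10 genes was 1.26 and that of all genes moved from -0.10 to -0.33, and 42.0% of calls were higher in muscle in place of 61.5%. The covariate for receptor-gene counts gave 0.0504 for Dlk1. Grb10 changed sign with library size only (-0.048) and within the 4 libraries that share a header identifier (-0.014). It also did so without epithelium replicate 2 (-0.076) or 3 (-0.0046), and without a library it ranged from -0.076 to 0.48. The sign also changed for Cdkn1a within those 4 libraries (0.076) and for Trim28 without a library (from -0.51 to 0.084). For Vps16 it changed with RLE factors (-0.045), library size only (-0.18), the stricter filter (-0.060) and DESeq2 (-0.045). Vps16 also changed sign within those 4 libraries (-0.082) and without a library (from -0.17 to 0.34). The log2 ratio of H19 to Igf2 counts differed by -0.0501 to 0.0947 over the fits without a library. The cause of these changes was not tested.

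Over all genes 2071 passed, 983 at an adjusted p under 0.01, 3531 with DESeq2, 3178 with the header identifier as a term and 1169 to 2573 without a library, the lowest without epithelium replicate 3. Without muscle replicate 1 it was 1323. Other imprinted genes higher in muscle numbered 6, against 11 with limma-voom or the covariate, 10 with the identifier as a term, 3 at an adjusted p under 0.01 and 3 to 9 without a library. In epithelium there was 1, against 3 with RLE factors, the covariate or the identifier as a term. There were 4 with library size only, the stricter filter (10 CPM in 3 libraries) or DESeq2. There were 2 with limma-voom or within the 4 libraries that share a header identifier, and 1 to 2 without a library.

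The replicate numbers were not taken to pair the libraries. Deviations from the group means correlated at 0.59, 0.73 and -0.57 across 19375 genes for the libraries numbered 1, 2 and 3. Across 4123 genes taken as expressed, the values were 0.17, 0.15 and -0.17. Across 19375 genes, correlations were positive between libraries alike in receptor-gene counts, high or low, and negative otherwise. They thus cannot decide whether muscle and epithelium libraries of the same number share embryos. Not every library correlated best with its own number. With the replicate block 2418 genes passed, and the 10 genes kept 8 calls. The ratio of Dlk1 to Meg3 differed by 1.40 with the replicate block (exact sign-flip test, p = 0.25, the smallest it allows), and that of H19 to Igf2 by 0.02.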
